A study of Mus musculus with 6 samples.

Results

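The clustered protocadherin genes lie side by side on mouse chromosome 18, and the CpGs described here are those between positions 36925000 and 37850000 of mm10 that had at least 10 reads in each of the 3 cell types, with the reads of both libraries summed. Of 1106981 CpGs of the genome that met this requirement, 612 were in this window. The Pcdha cluster held 161 of them, the Pcdhb cluster 98, and the Pcdhg cluster 264, and the other 89 lay between the clusters. The methylation level of a CpG is the percentage of its reads that were methylated, and the level of a library is averaged over its CpGs with 10 or more reads.

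DNA methylation was measured by reduced representation bisulfite sequencing (RRBS), which reads the CpG-rich part of the genome, with 2 libraries each of mESCs, C-iPSCs, and 4F-iPSCs. C-iPSCs were induced from OG2-MEFs, fibroblasts of mice with an Oct4 reporter, with small molecules: VPA, CHIR99021, a TGF-beta receptor kinase inhibitor, tranylcypromine, Forskolin, AM580, EPZ004777, and in the later stage DZNep, 5-Aza-2'-deoxycytidine, and SGC0946. Several of these act on chromatin, and 5-Aza-2'-deoxycytidine inhibits the DNA methyltransferases. 4F-iPSCs were induced from OG2-MEFs by retroviral Oct4, Sox2, Klf4, and c-Myc. The mESCs were the line E14. All were male and were kept with serum, LIF, and 2i (PD0325901 at 1 μM with CHIR99021 at 3 μM). By the labels they grew on feeder MEFs that were removed before collection, whereas the methods of the study give gelatin-coated plates. Both iPSC types were at passages 5 to 10 and the mESCs at passages 20 to 30, and OG2-MEFs and E14 come from different mice, so that cell type, strain, and passage cannot be told apart between iPSCs and mESCs. The labels do not say whether the libraries of a cell type came from separate cultures or lines. The p-values of Fisher's exact test and the Cochran-Mantel-Haenszel test on single CpGs rest on read counts and not on the spread between libraries. The other p-values here reach no further than the spread between these libraries.

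Clustered protocadherins are cadherin-type adhesion molecules on the surface of neurons, where different sets of isoforms give each cell an identity that it uses to tell its own branches from those of its neighbors. Each gene has its own large variable exon, which holds the extracellular domain and is preceded by its own promoter. In the Pcdha and Pcdhg clusters, the variable exon is spliced to constant exons at the end of the cluster, whereas each Pcdhb gene is a single exon. Neurons choose among most of these promoters at random, and the C-type genes Pcdhac1, Pcdhac2, Pcdhgc3, Pcdhgc4, and Pcdhgc5 are chosen in a more constant way. DNA methylation of the promoter and the first part of the exon, set in the embryo by Dnmt3b, is known to accompany silent promoters, and CTCF, cohesin, and Smchd1 act on the same clusters.

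The sequence window holds 11167 CpGs, of which 940 had a read in at least 1 library, so the text describes the CpG-rich stretches that RRBS cuts out and not whole genes. The libraries had between 53694199 and 96534037 reads on CpGs, and the 612 CpGs had median reads between 42 in mESC replicate 2 and 74 in 4F-iPSC replicate 1. The variable exons resemble each other, and 159 of the 612 CpGs had a near-identical stretch elsewhere in the window (at most 8 mismatches over 100 bp), where reads could be assigned to the wrong copy. CpGs with such a copy had mean levels of 18.1% and 18.1% for mESCs, 21.2% and 25.4% for C-iPSCs, and 35.9% and 39.0% for 4F-iPSCs. For CpGs without one these were 18.6% and 20.3%, 24.4% and 29.4%, and 35.2% and 37.5%. Both kinds of CpGs had the same order of cell types. C-iPSC replicate 2 was above replicate 1 in 26 of the 28 variable exons tested below, and in 84.9% of 17463 exons of the genome. 4F-iPSC replicate 2 was above replicate 1 in 20 of the 28, and in 78.8% of all exons. The part of this shift between libraries in the results was examined only by leaving out libraries and by taking the replicate number as a block.

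Over the 612 CpGs, mESCs had the lowest methylation and 4F-iPSCs the highest. The mean level was 18.4% and 19.8% for the mESC libraries, 23.6% and 28.4% for the C-iPSC libraries, and 35.4% and 37.9% for the 4F-iPSC libraries. No 2 cell types overlapped. The difference between 4F-iPSCs and mESCs was 17.5 percentage points (SD 1.99, n = 2 libraries each), that between C-iPSCs and mESCs was 6.90 points (SD 3.51), and that between 4F-iPSCs and C-iPSCs was 10.6 points (SD 3.81). Each reached p = 0.333 in the two-sided exact permutation test, which is the smallest p that 2 libraries against 2 allow. Without C-iPSC replicate 2, the difference between C-iPSCs and mESCs was 4.44 points. Over all compared CpGs of the genome, the same differences were 12.1, 6.51, and 5.58 points, so the protocadherin CpGs differed more than the average CpG between 4F-iPSCs and either other cell type, and about as much between C-iPSCs and mESCs.

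**Figure D1:**
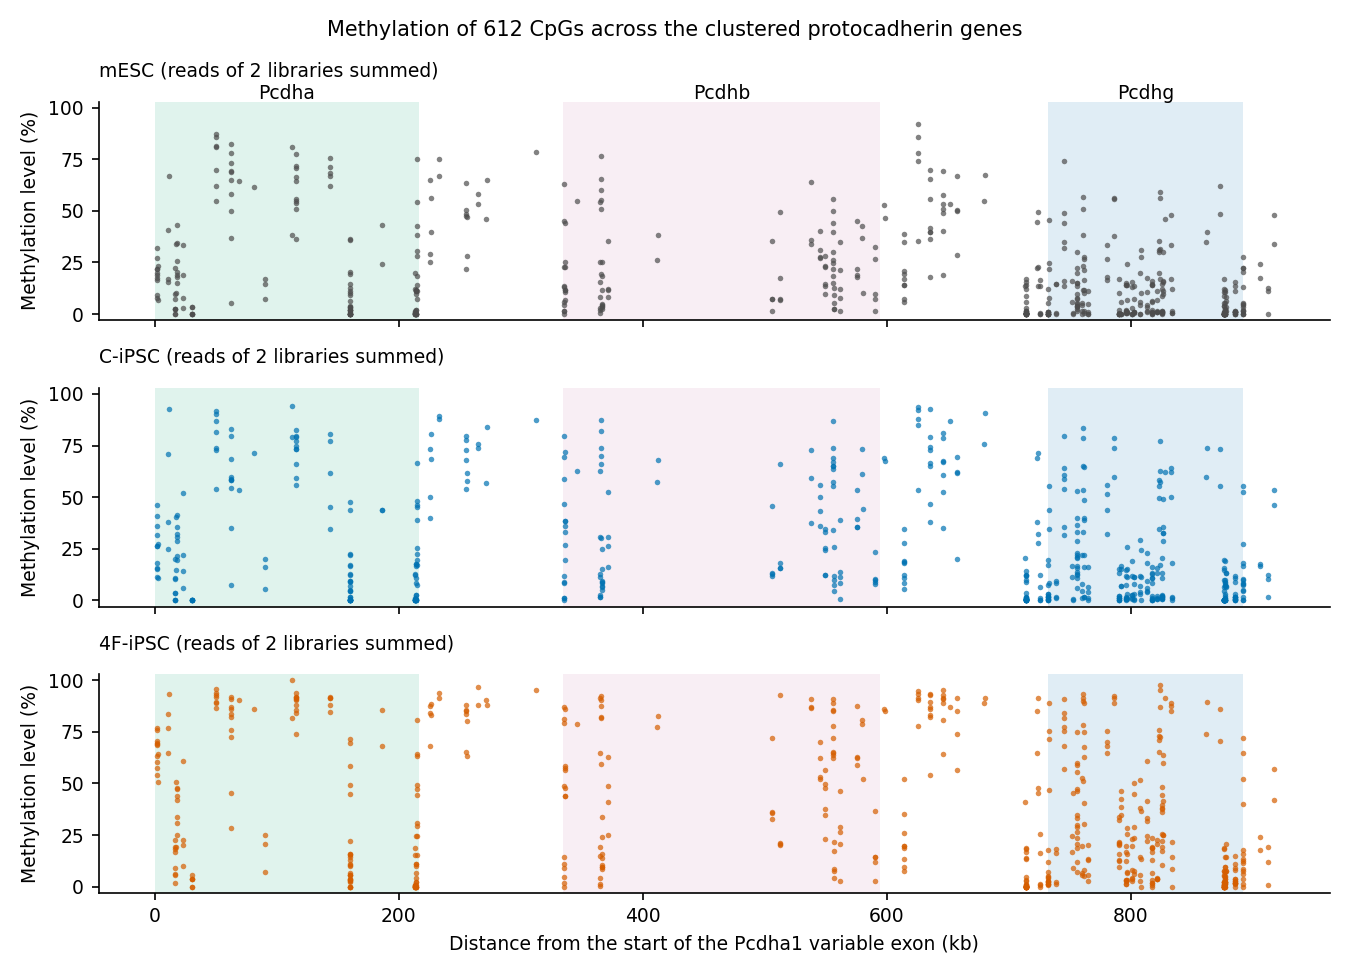
Methylation level in percent of each of the 612 CpGs (points, reads of 2 libraries summed) against the distance in kb from the start of the Pcdha1 variable exon, in mESCs, C-iPSCs, and 4F-iPSCs. Shaded spans mark the Pcdha, Pcdhb, and Pcdhg clusters. The share of CpGs at 80% or more rises from 1.31% for mESCs to 4.25% for C-iPSCs and 19.1% for 4F-iPSCs, and low CpGs remain in each cluster.

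The share of low CpGs was largest in mESCs, and that of highly methylated CpGs in 4F-iPSCs. In mESCs 74.7% of the 612 CpGs had a level under 30%, 24.0% were intermediate, and 1.31% had a level of 80% or more. In C-iPSCs the shares were 65.2%, 30.6%, and 4.25%, and in 4F-iPSCs 54.9%, 25.98%, and 19.1%. Over all compared CpGs the highly methylated share was 2.67% for mESCs, 12.5% for C-iPSCs, and 24.7% for 4F-iPSCs. The 3 clusters differed in how many of their CpGs were highly methylated in 4F-iPSCs, which was 46 of 161 in Pcdha, 20 of 98 in Pcdhb, and 20 of 264 in Pcdhg. In mESCs these counts were 6, 0, and 0.

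CpGs with a low level in mESCs were also followed against CpGs of the genome with a like mESC level. Of the members, 235 had a level under 5% for mESCs, with a mean of 1.01%, and their mean was 2.49% for C-iPSCs and 6.90% for 4F-iPSCs. The 522362 CpGs of the genome in this class had means of 0.631%, 1.25%, and 1.81%. Between 10% and 30% for mESCs, 168 members had means of 17.5%, 25.9%, and 40.9%, against 17.8%, 25.1%, and 33.8% for the genome. Between 30% and 60%, 106 members had means of 43.7%, 59.7%, and 77.4%, against 45.8%, 64.9%, and 78.2%. The excess of the members over the genome in 4F-iPSCs was thus seen among CpGs that were low in mESCs and not among those between 30% and 60%. The mESC level that forms these classes also enters the differences, and no test was made.

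The levels followed the parts of the genes. Within 1 kb upstream of the variable exons, where the promoters lie, 27 CpGs had mean levels of 5.67% and 4.32% for mESCs, 5.06% and 7.64% for C-iPSCs, and 7.78% and 14.4% for 4F-iPSCs. The 4F-iPSC value rests on replicate 2, and the difference to mESCs was 6.08 points with both libraries, 2.70 points without 4F-iPSC replicate 2, and 9.30 points without 4F-iPSC replicate 1. These 27 CpGs belong to 7 exons. The 12 outside C-type genes had 7.43% and 7.04% for mESCs, 7.80% and 10.5% for C-iPSCs, and 12.7% and 25.3% for 4F-iPSCs. The 433 CpGs inside variable exons had 13.4% and 15.0% for mESCs, 18.4% and 22.9% for C-iPSCs, and 30.0% and 32.8% for 4F-iPSCs. The 10 CpGs in the constant exons of Pcdha, which encode the cytoplasmic end shared by all Pcdha proteins, had 43.3% and 39.8% for mESCs, 57.2% and 67.8% for C-iPSCs, and 77.9% and 80.5% for 4F-iPSCs. The 30 other CpGs inside the Pcdha cluster, in introns or between exons, were high in every library, with 63.0% and 66.3%, 68.1% and 76.8%, and 88.2% and 88.7%. Of these 30, 7 lie in the pseudogene Gm36858 and had between 73.7% and 91.9%. The 7 other CpGs of the Pcdhb cluster had 38.5% and 40.9%, 53.3% and 65.9%, and 77.3% and 81.0%, and the 16 of the Pcdhg cluster 25.8% and 27.0%, 32.4% and 40.03%, and 48.5% and 48.2%. In each of the 6 libraries the upstream CpGs were lowest, followed by those in variable exons, and the constant exons and other CpGs of the clusters were higher. In the stretch between Pcdhb and Pcdhg, the 25 CpGs of Taf7, a general transcription factor gene, had between 1.73% and 4.41% in the 6 libraries.

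Averaged over their CpGs, C-type exons were less methylated than the other variable exons in every library. The 119 CpGs of the 5 C-type exons had mean levels of 7.27% and 7.42% for mESCs, 8.35% and 10.5% for C-iPSCs, and 12.8% and 12.9% for 4F-iPSCs. The 314 CpGs of the other variable exons had 15.7% and 17.9%, 22.3% and 27.5%, and 36.9% and 40.7%. The gap within a library was between 8.41 and 27.7 points, with a mean of 16.9 points (SD 7.64, n = 6 libraries), and the exact two-sided sign-flip test over libraries gave p = 0.03125, the smallest it can give. This comparison was chosen after the values were seen. The gap was 22.0 points without CpGs that have a near-identical copy, and between 15.0 and 18.5 points when each library was left out in turn. The difference between 4F-iPSCs and mESCs was 5.50 points in C-type exons and 22.0 points in the others. Single exons overlapped between the 2 kinds. In mESCs the 5 C-type exons had between 2.41% and 11.8% (median 8.84%). The 23 others tested below had between 2.58% and 59.0% (median 15.5%). The number of CpGs nearby was not held fixed in this comparison.

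Among the clusters, Pcdhg had the lowest methylation in each library. The mean level of Pcdha was 27.7% and 28.5% for mESCs, 30.9% and 38.8% for C-iPSCs, and 43.5% and 45.0% for 4F-iPSCs. That of Pcdhb was 19.3% and 24.4%, 30.4% and 35.2%, and 46.1% and 46.5%. That of Pcdhg was 10.3% and 10.0%, 14.1% and 18.3%, and 24.0% and 28.6%. Pcdhg was below Pcdha by 16.3 to 20.5 points within each of the 6 libraries, and below Pcdhb by 9.01 to 22.2 points. Both gaps had p = 0.0469 by the exact sign-flip test with Benjamini-Hochberg adjustment over 3 pairs of clusters, and with 5 libraries this test cannot go below 0.0625. Pcdhb was above Pcdha in 2 of the 6 libraries, both from 4F-iPSCs (adjusted p = 0.281 by the exact sign-flip test). The sign of this last gap depended on which CpGs were used. Over variable exons alone, which leaves out the highly methylated introns and constant exons of Pcdha, Pcdhb was above Pcdha in all 6 libraries, by 8.21 points on average. On the same CpGs Pcdhg was below Pcdha by 4.93 to 10.6 points (mean of Pcdhg minus Pcdha -7.60 points), and below Pcdhb by 8.72 to 22.1 points.

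The clusters also differed in how far apart the cell types were. The difference between 4F-iPSCs and mESCs was 16.1 points (SD 1.15) in Pcdha, 24.5 points (SD 3.62) in Pcdhb, and 16.2 points (SD 3.29) in Pcdhg. Between C-iPSCs and mESCs it was 6.68 points (SD 5.60), 11.01 points (SD 4.93), and 6.05 points (SD 2.95), and without C-iPSC replicate 2 the Pcdha value was 2.20 points and the Pcdhg value 3.96 points. Between 4F-iPSCs and C-iPSCs it was 9.44 points (SD 5.66), 13.5 points (SD 3.38), and 10.1 points (SD 4.41). For Pcdha it became 14.9 points without C-iPSC replicate 2, and for Pcdhb 7.34 points without C-iPSC replicate 1. Whether the clusters differed in these differences was not tested.

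Single variable exons were tested to ask which genes carried the change. The 58 genes have 57 variable exons in the annotation, since Pcdhb21 and Pcdhb22 share 1 merged exon. RRBS gave compared CpGs in 43 of them, and 28 had at least 5 such CpGs and a level in every library, 5 in Pcdha, 6 in Pcdhb, and 17 in Pcdhg. The test was limma across 17463 exons of protein-coding genes with Benjamini-Hochberg adjustment over all of them, and exons with an adjusted p under 0.05 are called higher or lower. Its small p-values rest on a spread shared between exons, since each cell type has 2 libraries.

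Against mESCs, 22 of the 28 variable exons were higher in 4F-iPSCs, 4 of 5 in Pcdha, 5 of 6 in Pcdhb, and 13 of 17 in Pcdhg, and 0 were lower. Over all exons tested, 31.6% were higher and 0.263% lower, and among the 1184 other exons of 2 to 4 kb, 64.7% were higher. Of the variable exons tested, Pcdhb16, Pcdhb17, Pcdhb18, and the merged exon of Pcdhb21 and Pcdhb22 are longer, with 4660 to 10859 bp. The median difference was 16.2 points over the 28, 19.9 points over the other exons of 2 to 4 kb, and 1.30 points over all other exons. In 26 of the 28 both 4F-iPSC libraries were above both mESC libraries, which held for 51.0% of all exons. In 22 of the 28 the mean level rose from mESCs through C-iPSCs to 4F-iPSCs, which held for 61.0% of all exons. Of the 22, 13 were called under every alternative that could be computed for them: Pcdha1, Pcdhb1, Pcdhb16, Pcdhb17, Pcdhga1, Pcdhga3, Pcdhga4, Pcdhgb2, Pcdhgb4, Pcdhgb5, Pcdhgb6, Pcdhgb7, and Pcdhgb8. The other 9 lost the call in at least 1 alternative, 8 of them when a single library was left out.

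**Figure D2:**
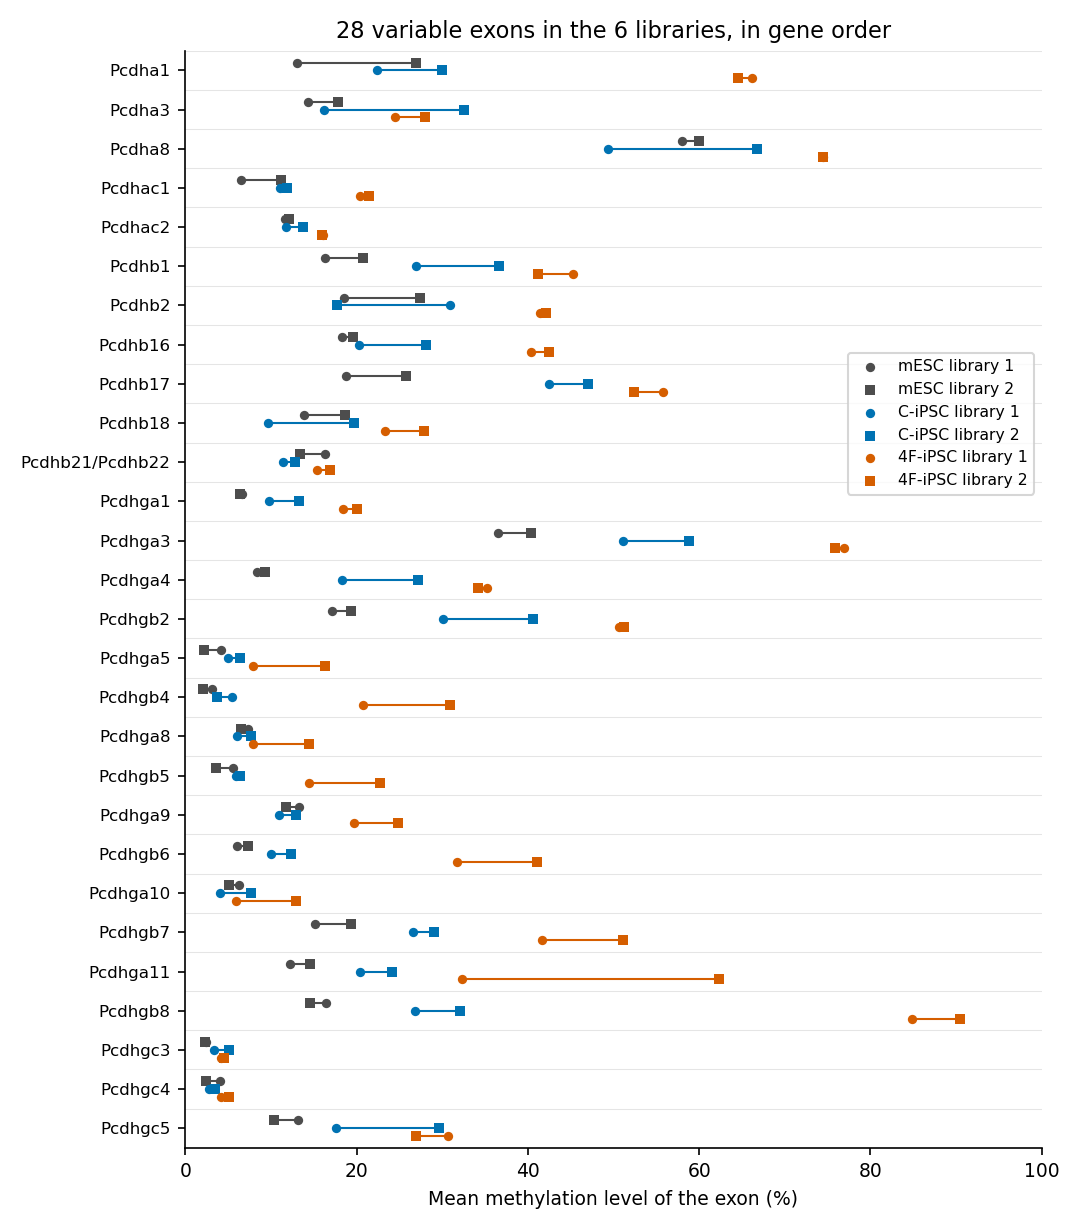
Mean methylation level in percent of the 28 variable exons tested, in gene order, in each of the 6 libraries (circles replicate 1, squares replicate 2, lines join the libraries of a cell type). Both 4F-iPSC libraries lie to the right of both mESC libraries in 26 exons, and C-iPSCs lie between in most. Pcdhgb8 is shown in 4F-iPSCs by 3 of its 7 CpGs.

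In Pcdha, the first variable exon differed most among the 5 tested. The Pcdha1 exon (chr18:36930184-36932672) had levels of 13.03% and 27.0% for mESCs, 22.3% and 30.0% for C-iPSCs, and 66.2% and 64.6% for 4F-iPSCs. The 4F-iPSC libraries were far above the other 4, which overlapped. The difference to mESCs was 45.4 points (SE 5.47, limma adjusted p = 2.91e-14), and each of its 12 CpGs was strongly hypermethylated by the rule used for single CpGs below, although 7 of the 12 have a near-identical copy. Pcdha8 had the highest level of the 28 exons in mESCs, with 58.0% and 60.04%, and then 49.3% and 66.8%, and 74.5% and 74.4%. Its difference was 15.4 points (SE 6.34, limma adjusted p = 0.0471), and the call was lost in 8 of 14 alternatives. Pcdha3 had 14.4% and 17.9%, 16.1% and 32.5%, and 24.5% and 28.0%, with a difference of 10.1 points (SE 4.14, limma adjusted p = 0.0453) and a call that was lost in 6 of 14. C-iPSC replicate 2 covered 9 of its 17 CpGs, and over those 9 the levels were 23.2% and 26.9%, 26.4% and 32.5%, and 35.9% and 39.4%.

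Of the C-type genes of Pcdha, 1 was called. Pcdhac1 had 6.49% and 11.2% for mESCs, 11.03% and 11.9% for C-iPSCs, and 20.4% and 21.5% for 4F-iPSCs, a difference of 12.1 points (SE 3.09, limma adjusted p = 0.000436). The call was lost without mESC replicate 1 (limma adjusted p = 0.104). Pcdhac2, with 35 CpGs one of the best covered exons, had 11.6% and 12.1%, 11.8% and 13.7%, and 16.1% and 15.9%. Its difference of 4.16 points (SE 3.07) did not pass the test (limma adjusted p = 0.396).

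The 6 Pcdhb exons tested had mean levels between 14.8% and 23.0% for mESCs. Pcdhb17 (chr18:37484795-37489454) had 18.7% and 25.8% for mESCs, 42.5% and 47.0% for C-iPSCs, and 55.8% and 52.4% for 4F-iPSCs, a difference of 31.8 points (SE 5.68, limma adjusted p = 2.72e-07). Pcdhb1, the first gene of the cluster and set apart from the rest of it, had 16.3% and 20.7%, 27.0% and 36.6%, and 45.3% and 41.2%, a difference of 24.7 points (SE 5.01, limma adjusted p = 5.99e-06). In both exons all 3 cell types were separate. Pcdhb16 had 18.3% and 19.6%, 20.3% and 28.1%, and 40.3% and 42.5%, and all 6 of its CpGs have a copy. Pcdhb2 had 18.6% and 27.4%, 31.0% and 17.7%, and 41.4% and 42.1%, but C-iPSC replicate 2 and mESC replicate 1 missed some of its CpGs. Over the 13 CpGs read in every library its levels were 12.95% and 12.96%, 15.6% and 17.7%, and 22.3% and 23.6%, which lowers the difference from 18.8 points to 9.96 points (limma adjusted p = 0.0123 over the same CpGs).

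The 2 Pcdhb exons with the smallest differences rest on 5 CpGs each, all with a copy. Pcdhb18 had 13.8% and 18.7% for mESCs, 9.72% and 19.7% for C-iPSCs, and 23.3% and 27.9% for 4F-iPSCs. Its difference was 9.32 points (SE 3.75, limma adjusted p = 0.0408), and the call was lost in 5 of 13 alternatives. The merged exon of Pcdhb21 and Pcdhb22 had 16.3% and 13.4%, 11.4% and 12.8%, and 15.3% and 16.9%, and 4F-iPSCs and mESCs overlapped (difference 1.30 points, SE 3.17, limma adjusted p = 0.835).

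In Pcdhg, the genes of the A and B subfamilies differed widely in level. Pcdhga3 was the most methylated of those tested in mESCs, with 36.5% and 40.4%, and had 51.1% and 58.9% for C-iPSCs and 76.9% and 75.9% for 4F-iPSCs (difference between 4F-iPSCs and mESCs 37.9 points, SE 6.25, limma adjusted p = 2.83e-08). Pcdhgb2 had 17.2% and 19.4%, 30.1% and 40.6%, and 50.7% and 51.3% (32.7 points, SE 5.30). Pcdhga4 had 8.35% and 9.34%, 18.3% and 27.2%, and 35.3% and 34.2% (25.9 points, SE 4.12). In these 3 genes C-iPSCs lay between the other cell types without overlap. Further along the cluster Pcdhgb4 had 3.13% and 2.03%, 5.45% and 3.67%, and 20.7% and 30.9% (23.2 points, SE 2.74, limma adjusted p = 8.99e-15), and Pcdhgb6 had 6.10% and 7.36%, 9.99% and 12.3%, and 31.8% and 41.1% (29.7 points, SE 3.65, limma adjusted p = 9.68e-14). In Pcdhgb4 and Pcdhgb6 the C-iPSC libraries stayed near the mESC level. Copies were present at 12 of 14 CpGs of Pcdhgb4 and 4 of 6 of Pcdhgb6. In Pcdhgb4, mESC replicate 1 and C-iPSC replicate 2 covered 10 of the 14 CpGs, so its fitted differences compare partly different CpGs. Over those 10 the levels were 3.13% and 2.84% for mESCs, 3.52% and 3.67% for C-iPSCs, and 15.7% and 24.6% for 4F-iPSCs.

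The exons of Pcdhga11 and Pcdhgb8 need care. Pcdhgb8 had 16.5% and 14.5% for mESCs, 26.9% and 32.0% for C-iPSCs, and 84.9% and 90.4% for 4F-iPSCs, but its 4F-iPSC libraries had at least 10 reads at only 3 of 7 CpGs. Over the same 3 CpGs the levels were 33.1% and 30.6%, 53.9% and 69.3%, and 84.9% and 90.4%, so the fitted difference of 72.2 points compares different CpGs. The 4 CpGs left out in 4F-iPSCs all have a near-identical copy, and their levels in the other libraries were between 2.44% and 6.61%. Pcdhga11 had 12.2% and 14.6%, 20.4% and 24.2%, and 32.3% and 62.3%, the widest gap between libraries of a cell type among the 28 exons (30.0 points). The 4F-iPSC libraries covered 7 of its 12 CpGs. Over those 7 the levels were 10.6% and 10.5%, 12.7% and 13.01%, and 32.3% and 62.3%. The difference to mESCs was 34.0 points (SE 4.73, limma adjusted p = 8.65e-11), and it was 21.8 points without 4F-iPSC replicate 2 and 51.8 points without 4F-iPSC replicate 1. The call was lost in 1 of 14 alternatives, without C-iPSC replicate 1, where the difference was still 34.0 points.

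Of the other Pcdhg exons called, 5 differed by between 8.98 and 29.2 points. Pcdhgb7 had 15.1% and 19.3% for mESCs, 26.6% and 29.1% for C-iPSCs, and 41.7% and 51.1% for 4F-iPSCs (difference 29.2 points, SE 4.95). Pcdhgb5 had 5.54% and 3.62%, 5.94% and 6.42%, and 14.4% and 22.7% (13.98 points, SE 2.60), with a copy at all 12 CpGs. Pcdhga1 had 6.58% and 6.38%, 9.77% and 13.2%, and 18.4% and 20.1% (12.8 points, SE 2.92). Pcdhga9 had 13.3% and 11.7%, 10.997% and 12.96%, and 19.7% and 24.8% (9.73 points, SE 3.33). Its difference was 16.7 points without 4F-iPSC replicate 1 and 8.68 points without 4F-iPSC replicate 2. Over the 5 CpGs read in every library it was 15.3 points. The call in Pcdhga9 was lost in 3 of 13 alternatives. Pcdhga5 had 4.15% and 2.18%, 4.95% and 6.44%, and 7.94% and 16.3% (8.98 points, SE 2.26), and without 4F-iPSC replicate 2 its difference was 4.77 points and was not called. In each of these 5 genes both 4F-iPSC libraries were above the other 4.

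The remaining Pcdhg exons were low throughout, apart from Pcdhgc5. Pcdhga8 had 7.38% and 6.52%, 6.05% and 7.71%, and 7.89% and 14.5%, and Pcdhga10 had 6.27% and 5.07%, 4.00% and 7.67%, and 5.94% and 12.9%. Their differences between 4F-iPSCs and mESCs did not pass the test (4.24 points, SE 2.43, and 3.74 points, SE 2.26), and in both the second 4F-iPSC library was above the first. Without 4F-iPSC replicate 1 both exons were called, with 7.54 points in Pcdhga8 and 7.46 points in Pcdhga10, and without 4F-iPSC replicate 2 the differences were 0.936 and 0.512 points. The C-type genes Pcdhgc3, with 39 CpGs the best covered exon, and Pcdhgc4 had between 2.34% and 5.11% in the 6 libraries, with differences of 1.91 points (SE 1.54) and 1.46 points (SE 1.56) that did not pass the test. Pcdhgc5, the last variable exon of the cluster, had 13.2% and 10.4% for mESCs, 17.6% and 29.6% for C-iPSCs, and 30.7% and 26.9% for 4F-iPSCs, a difference of 17.1 points (SE 4.05, limma adjusted p = 0.000127). The 2 C-type exons called in 4F-iPSCs were thus Pcdhac1 and Pcdhgc5.

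Between C-iPSCs and mESCs, 6 of the 28 variable exons were higher and 0 lower, against 17.5% and 0.326% of all exons and 32.0% of the other exons of 2 to 4 kb for higher calls. The median difference was 3.53 points over the 28 and 9.53 points over the other exons of 2 to 4 kb. Pcdhb17 differed most, by 22.5 points (SE 5.68, limma adjusted p = 0.00196). Next were Pcdhgb2 with 17.0 points (SE 5.30), Pcdhga3 with 16.5 points (SE 6.25), Pcdhga4 with 13.9 points (SE 4.12), Pcdhb1 with 13.3 points (SE 5.01), and Pcdhgc5 with 11.9 points (SE 4.05). In all 6 both C-iPSC libraries were above both mESC libraries, as in 16 of the 28, which held for 38.5% of all exons. Each of the 6 calls was lost when mESC replicate 1 was left out, with 0 calls remaining. The count was 1 without mESC replicate 2, 1 without C-iPSC replicate 2, and 3 without either 4F-iPSC library. Without C-iPSC replicate 2 the difference was 5.87 points in Pcdhgc5 and 8.46 points in Pcdhb1, and without C-iPSC replicate 1 it was 19.0 points in Pcdhgc5.

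Between 4F-iPSCs and C-iPSCs, 12 of the 28 variable exons were higher in 4F-iPSCs and 0 lower, against 4.79% and 0.132% of all exons and 8.28% of the other exons of 2 to 4 kb for higher calls. The median difference was 11.2 points over the 28 and 7.25 points over the other exons of 2 to 4 kb. Both 4F-iPSC libraries were above both C-iPSC libraries in 24 of the 28, which held for 40.3% of all exons. Pcdha1, Pcdhgb4, and Pcdhgb6 were called under every alternative, with differences of 39.2 points (SE 5.47, limma adjusted p = 6.85e-10), 21.2 points (SE 2.74, limma adjusted p = 1.03e-11), and 25.3 points (SE 3.65, limma adjusted p = 3.26e-09). Pcdhgb8 was also called in each alternative that could be computed. The limits on the CpGs of Pcdhgb4 and Pcdhgb8 are given above. The other 8 were Pcdhga11 with 25.1 points, Pcdhga3 with 21.4 points, Pcdhgb7 with 18.6 points, Pcdhb2 with 17.4 points, Pcdhb16 with 17.3 points, Pcdhgb5 with 12.4 points, Pcdhga9 with 10.3 points, and Pcdhac1 with 9.43 points. All 8 lost the call without at least 1 library. The difference in Pcdhb2 was 5.22 points without C-iPSC replicate 1 and 10.8 points without C-iPSC replicate 2. That in Pcdhga11 was 49.5 points without 4F-iPSC replicate 1, and that in Pcdhgb5 was 8.24 points without 4F-iPSC replicate 2. The count was 6 without C-iPSC replicate 1 and 4 without 4F-iPSC replicate 2. Pcdhb2 lost its call over the CpGs read in every library (6.26 points, limma adjusted p = 0.338).

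Single CpGs were called strongly hypermethylated or hypomethylated where the levels of summed reads differed by more than 33.3 points and the two-sided Fisher's exact test had an unadjusted p under 0.05, without regard to the spread between libraries. Between 4F-iPSCs and mESCs 155 of the 612 CpGs (25.3%) were strongly hypermethylated, against 14.3% of all compared CpGs, and 0 hypomethylated, against 0.0333%. The share was 21.7% in Pcdha, 37.8% in Pcdhb, 22.0% in Pcdhg, and 28.1% between the clusters. By part, it was 8 of 10 CpGs in the constant exons of Pcdha and 0 of 27 upstream CpGs. A quasi-binomial model that takes the spread between libraries into account called 141 of 611 hypermethylated, against 13.1% of all CpGs it tested, and 0 hypomethylated, against 0.025%.

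Between C-iPSCs and mESCs 15 of the 612 (2.45%) were strongly hypermethylated, against 2.9% of all, and 1 was hypomethylated, against 0.0374%. Leaving out 1 library changed the 15 to 9 (C-iPSC replicate 2), 28 (mESC replicate 2), or 35 (C-iPSC replicate 1), and the quasi-binomial model called 8 of 611, against 1.49% of all. The hypomethylated CpG, at chr18:37073980 in the Pcdha cluster outside the exons, had 72.9% and 68.4% for mESCs, 20.0% and 56.1% for C-iPSCs, and 91.5% and 91.2% for 4F-iPSCs. Its C-iPSC libraries were far apart, and it was not called without C-iPSC replicate 1. The quasi-binomial model called 1 hypomethylated, against 0.0113% of all. Set against C-iPSCs, 4F-iPSCs had 42 strongly hypermethylated CpGs (6.86%), against 1.35% of all, and 0 were hypomethylated, against 0.0285%. The quasi-binomial model called 25 hypermethylated, against 0.614% of all, and 0 hypomethylated, against 0.0142%. The median level of the 42 was 18.3% for mESCs, 26.9% for C-iPSCs, and 66.4% for 4F-iPSCs.

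Many strong CpGs lay close together. Runs of at least 3 of them with neighbors at most 300 bp apart numbered 22 between 4F-iPSCs and mESCs and held 110 of the 155 CpGs (71.0%), against 53.3% of the strongly hypermethylated CpGs of the genome. In Pcdhgb2 a run of 9 CpGs over 378 bp had 26.8% and 32.7% for mESCs, 50.1% and 62.9% for C-iPSCs, and 78.1% and 77.3% for 4F-iPSCs. In Pcdhb1 a run over 292 bp had 20.7% and 24.8%, 34.8% and 49.5%, and 63.3% and 59.4%. Runs that begin between 957 and 1098 bp after the start of the exon were found in Pcdhb1, Pcdhb17, Pcdhga1, Pcdhga3, Pcdhga4, and Pcdhgb2. Runs began at 1165 bp in Pcdhgb8, 1467 bp in Pcdhgb4, 1504 bp in Pcdhb20, and 1258 and 2442 bp in Pcdhgb7. They began at 2146 bp in Pcdha1, 2310 bp in Pcdha2, 364 bp in Pcdhac1, and 11 bp in Pcdhga11. That last run (chr18:37755742-37755858), next to the promoter, had 4.25% and 4.85% for mESCs, 5.15% and 4.11% for C-iPSCs, and 24.7% and 57.9% for 4F-iPSCs.

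Between C-iPSCs and mESCs there was 1 run, of 6 CpGs in Pcdhb17, with 24.4% and 29.4% for mESCs, 59.7% and 71.5% for C-iPSCs, and 74.6% and 67.2% for 4F-iPSCs. It held 6 of the 15 CpGs, against 29.6% of those strongly hypermethylated in the genome. In this run C-iPSCs and 4F-iPSCs overlapped. The number of runs was 0 without C-iPSC replicate 2 and 4 without C-iPSC replicate 1. Between 4F-iPSCs and C-iPSCs there were 3 runs, in Pcdha1, Pcdhga1, and Pcdhga11, and 1 without 4F-iPSC replicate 2. They held 17 of the 42 CpGs (40.5%), against 23.3% of those strongly hypermethylated in the genome. The Pcdhga1 run had 21.9% and 27.1% for mESCs, 31.1% and 42.0% for C-iPSCs, and 69.6% and 71.7% for 4F-iPSCs.

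Along the exons, the first 500 bp after the promoter were on average less methylated than what followed. This pools CpGs of different exons, and single exons such as Pcdha8 (9 CpGs in the first 500 bp and 1 beyond) went the other way. In variable exons other than C-type, the 100 CpGs of the first 500 bp (from 18 exons) had mean levels of 10.9% and 9.84% for mESCs, 11.3% and 14.8% for C-iPSCs, and 19.4% and 23.9% for 4F-iPSCs. The 214 CpGs beyond had 17.9% and 21.7%, 27.1% and 33.1%, and 45.6% and 48.7%. The gap was positive in 6 of 6 libraries, between 6.98 and 26.3 points with a mean of 17.3 points (SD 7.44, exact two-sided sign-flip p = 0.03125, a comparison chosen after the values were seen). Without CpGs that have a near-identical copy the mean gap was 27.1 points. Among bins of 500 bp with at least 42 CpGs, the highest was 1000 to 1500 bp into the exon, where 58 CpGs from 15 exons had 25.5% and 30.8% for mESCs, 42.9% and 54.9% for C-iPSCs, and 67.9% and 69.8% for 4F-iPSCs. In the next 500 bp, 52 CpGs had 13.97% and 14.7%, 16.9% and 22.9%, and 33.7% and 39.4%, and 86.5% of these CpGs have a near-identical copy, against 6.90% in the bin before. The place of the highest bin was not the same in each cluster. With C-type exons included and reads summed, it was for 4F-iPSCs 2000 to 2500 bp in Pcdha (59.5%, 23 CpGs) and in Pcdhg (55.1%, 10 CpGs), and 500 to 1000 bp in Pcdhb (73.2%, 11 CpGs).

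**Figure D3:**
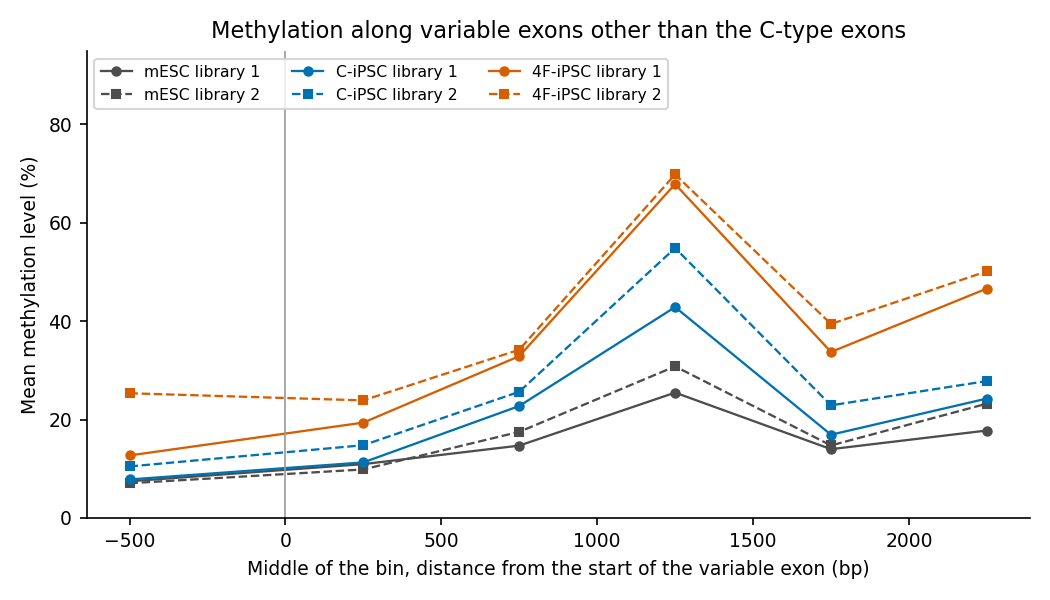
Mean methylation level in percent, per library, of CpGs in variable exons other than C-type and in the 1000 bp upstream, in bins of distance from the start of the exon in bp (points at the middle of each bin, solid lines replicate 1, dashed lines replicate 2). Of the bins shown, each library peaks in that from 1000 to 1500 bp, at 25.5% and 30.8% for mESCs and 67.9% and 69.8% for 4F-iPSCs. The first bin holds 12 CpGs and the others between 42 and 100.

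Position moved together with the number of CpGs nearby. CpGs of the first 500 bp of these exons had on average 11.1 CpGs within the 200 bp around them, and those of the peak bin 6.86. Over all 612 CpGs, the 67 with 1 to 4 CpGs in that span had levels of 38.3% for mESCs, 53.9% for C-iPSCs, and 71.3% for 4F-iPSCs. The 199 with 5 to 9 had 26.6%, 36.1%, and 49.4%, the 230 with 10 to 14 had 14.8%, 18.9%, and 29.6%, and the 116 with 15 to 40 had 3.77%, 4.84%, and 8.08%. Levels and the differences between cell types both fell as CpGs became denser. Whether position or density goes with the level once the other is held fixed was not tested.

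**Figure D4:**
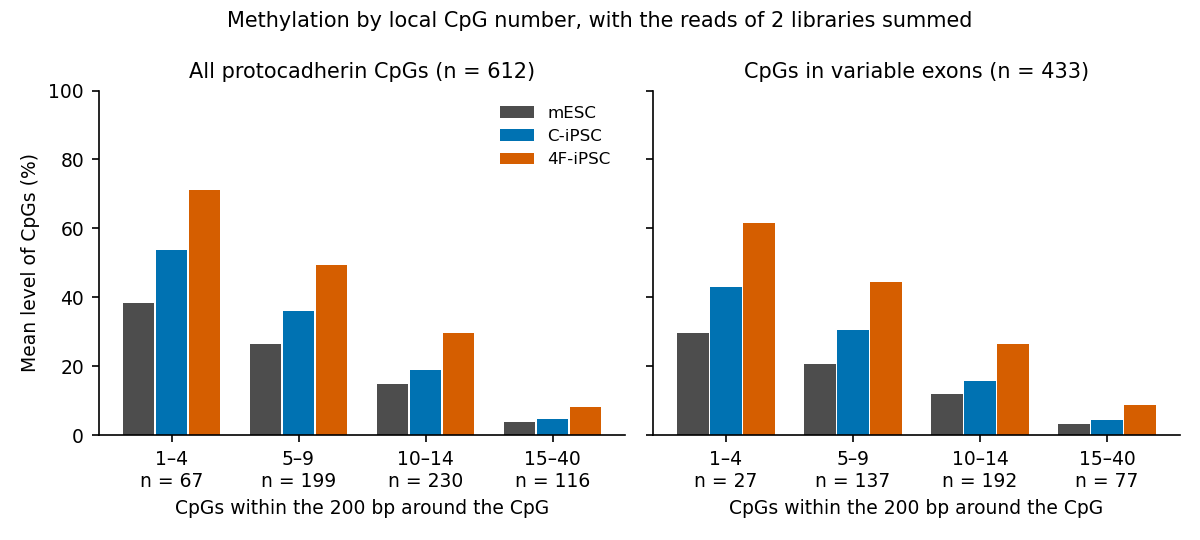
Mean methylation level in percent (bars, reads of 2 libraries summed, no error shown because each bar is 1 value per cell type) by the number of CpGs in the 200 bp around a CpG, for all 612 CpGs and for the 433 CpGs in variable exons. From 1 to 4 up to 15 to 40 CpGs the level falls from 38.3% to 3.77% for mESCs and from 71.3% to 8.08% for 4F-iPSCs over all members.

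Variable exons below 5 compared CpGs were not tested as exons, but some of them carry runs. The run in Pcdha2 (3 CpGs) had 19.4% and 32.6% for mESCs, 44.7% and 44.1% for C-iPSCs, and 73.7% and 77.2% for 4F-iPSCs. The run in Pcdhb20 (4 CpGs) had 24.1% and 28.0%, 38.2% and 45.2%, and 66.5% and 69.2%. In both the 3 cell types were separate. Of the 29 exons not tested, 14 had no compared CpG, 9 of them in Pcdhb, so what is said of Pcdhb rests on 12 of its 21 exons.

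Protocadherins outside the clusters and genes that act on the clusters were read at their promoters, within 1 kb of the start. Of 12 non-clustered protocadherins 10 could be tested, and 2 were higher in 4F-iPSCs than in mESCs, against 8.27% of all promoters. Pcdh11x, on the X chromosome, had 24.1% and 29.7% for mESCs, 32.5% and 41.7% for C-iPSCs, and 67.5% and 66.2% for 4F-iPSCs. Pcdh9 had 12.2% and 12.5%, 14.4% and 18.1%, and 24.7% and 23.8%. The other 8 had means of at most 12.7% in every cell type. Between C-iPSCs and mESCs 0 of the 10 were higher (1.64% of all promoters), and between 4F-iPSCs and C-iPSCs 1, Pcdh11x (1.68% of all promoters). In the same 3 comparisons 0 of the 10 were lower, against 0.135%, 0.158%, and 0.12% of all promoters. Of 17 genes that act on the clusters, among them Ctcf, the cohesin genes, Smchd1, and the DNA methyltransferase genes, 16 could be tested, and their means were at most 10.1% in every cell type. Lrif1, whose product binds Smchd1, was higher in 4F-iPSCs than in mESCs (4.69% and 3.87% against 6.32% and 13.9%, limma adjusted p = 0.0494), 1 call of 16 against 8.27% of all promoters. Its difference was 5.81 points and was 2.04 points without 4F-iPSC replicate 2 and 9.57 points without 4F-iPSC replicate 1. The other 15 were not called in any comparison.

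As a check of the labels, promoters of pluripotency genes and of fibroblast genes were read. Of 5 pluripotency genes Pou5f1 and Zfp42 had enough CpGs, and Pou5f1 had 8.07% and 9.81% for mESCs, 6.26% and 8.93% for C-iPSCs, and 12.1% and 22.4% for 4F-iPSCs. Zfp42 had 4.13% and 6.33%, 6.92% and 5.95%, and 7.79% and 15.7%, and in both genes the second 4F-iPSC library was well above the first. Of 5 fibroblast genes only Twist2 had enough, with 5.97%, 8.03%, and 10.7%. Both pluripotency promoters were called higher in 4F-iPSCs than in mESCs (8.27% of all promoters), and Pou5f1 also against C-iPSCs (1.68% of all promoters). Without 4F-iPSC replicate 2 the differences to mESCs were 3.18 points in Pou5f1 and 2.56 points in Zfp42, against 8.31 and 6.52 points with both libraries, and the difference to C-iPSCs in Pou5f1 was 4.53 points, against 9.66 points. The check covers no more than these 3 genes.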

How the data were processed

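The authors aligned RRBS read pairs to mm10 with BSMAP (version 2.90 in the submitters' processing notes) and called cytosines with MOABS. They deposited, for each library and CpG, the unnormalized count of reads and of methylated reads, and a methylated fraction, which was checked to equal the quotient of the counts. Only the counts were used, both strands together, and the reads themselves were not used here. Intervals and tests cover counting error and the spread between libraries, not errors of conversion or mapping.

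CpGs needed 10 summed reads in each cell type. Library levels are means over CpGs with 10 reads in that library. Exons and promoters (1 kb to each side of starts) were taken from GENCODE (basic set, GRCm38), and overlapping exons on 1 strand were merged. Exons and promoters were fitted with limma 3.58.1 in R 4.3.3 (trend and robust settings, all 6 libraries, no block) on mean levels in percent, with at least 5 CpGs, called at an adjusted p under 0.05. Single CpGs used Fisher's exact test, p under 0.05 and a difference above 33.3 points. A quasi-binomial model with shrunken dispersion was the alternative. The Fisher, quasi-binomial, and limma steps were tested on simulated data, and the other steps were not. Other work used Python 3.11.15, NumPy 2.4.6, pandas 2.3.3, and SciPy 1.17.1.

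The members and lists were chosen with earlier results of these data known. Every variable exon tested is named with its levels, and genes outside the clusters are given from lists by counts, with those called named. The alternatives were the read minimum, the CpG minimum, pooled reads, leaving out CpGs with a copy, an arcsine scale, other difference thresholds, the replicate number as a block, and leaving out each library. After the files had been seen, 3 more were added: the CpGs read in every library, clusters over variable exons alone, and promoters without each library. No sequence is shown.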

Additional observations from a re-analysis of the deposited data

How the results depend on the processing

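The mean levels over all members and per cluster kept their direction in every comparison between cell types under each alternative. Pcdhg minus Pcdha within libraries was -7.60 points over variable exons alone and ranged from -21.8 to -17.8 points and Pcdhb minus Pcdhg from 13.8 to 17.4 points when each library was left out in turn, where 5 libraries cannot reach the threshold. Pcdhb minus Pcdha was 1.41 points with at least 5 reads, -6.78 with at least 20 reads, -6.85 with all reads pooled, 7.19 without CpGs that have a near-identical copy, and 8.21 over variable exons alone, the last chosen after seeing the data. Strongly hypermethylated CpGs between 4F-iPSCs and mESCs numbered 27 with a difference above 0.5, and hypomethylated CpGs 1 with a difference above 0.25 and 0 to 1 without a library. Between C-iPSCs and mESCs the hypermethylated CpGs numbered 8 by the quasi-binomial model, 0 above 0.5, 38 above 0.25, and 9 to 35 without a library, and the hypomethylated 2 with at least 5 summed reads, 0 above 0.5, 2 above 0.25, and 0 to 2 without a library. For 4F-iPSCs against C-iPSCs the hypermethylated numbered 25 by the quasi-binomial model, 2 above 0.5, and 80 above 0.25. Exons higher in 4F-iPSCs than in mESCs numbered 14 of 20 with at least 10 CpGs. Left out 1 library at a time, exons higher in C-iPSCs than in mESCs numbered 0 to 8 and exons called higher between 4F-iPSCs and C-iPSCs 4 to 17, and the lone library was then assumed to vary like the other groups. The difference in the merged exon of Pcdhb21 and Pcdhb22 between 4F-iPSCs and mESCs was -0.154 points without mESC replicate 2 and 2.75 without mESC replicate 1. Except where an alternative itself uses fewer CpGs or libraries, the cause was not tested.

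Replicate numbers are shared between cell types. Deviations of same-numbered libraries from their group means, over CpGs of the genome, correlated by -0.226 for the pair 4F-iPSC and mESC. The correlation was 0.041 for C-iPSC and mESC, and 0.118 for 4F-iPSC and C-iPSC. The labels do not say whether a shared number pairs the libraries, and these values do not settle it. With the replicate number as a block, 22, 7, and 17 variable exons were higher in 4F-iPSCs against mESCs, C-iPSCs against mESCs, and 4F-iPSCs against C-iPSCs, against 22, 6, and 12 without it. The mean differences were 17.5, 6.90, and 10.6 points with and without the block. They could not differ, because every cell type has the same replicate numbers, so this is no check. The Cochran-Mantel-Haenszel test called 155, 15, and 42 hypermethylated CpGs, as did Fisher's exact test.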
